A study of Saccharomyces cerevisiae with 9 samples.

Results

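The large-subunit ribosome assembly factors described here are 37 of the 7126 genic regions in the deposited table. They were chosen by name for the function of their products and not by a rule on values, though earlier results of these data were known. They were measured by poly-A RNA-seq in W303 diploids of Saccharomyces cerevisiae, with 3 libraries for each of 3 strains. In sam2Δ/sam2Δ both copies of SAM2 carry a LEU2 cassette, and cells were grown in SC medium lacking leucine. In sam1Δ/sam1Δ both copies of SAM1 carry a KANMX cassette, and cells were grown in SC with G418. Wildtype was grown in plain SC. SAM1 and SAM2 encode the paired AdoMet synthetases of yeast. All 3 strains share the a/α mating type, the homozygous markers leu2-3, his3-Δ200, trp1-Δ1, ura3-52 and ade2-101, lys2/LYS2 and can1/CAN1 heterozygosity, and a pair of chromosome fragments carrying TRP1 and SUP11. Cultures were grown at 30 °C and harvested at an OD600 of 0.5 to 0.6. Strain, cassette and medium change together in each comparison and cannot be told apart, and no source used here says whether the 3 libraries of a strain came from separate colonies, so P values measure the spread between these libraries.

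The large ribosomal subunit is built in the nucleolus on a precursor of the ribosomal RNA, matured in the nucleoplasm, exported through nuclear pores and finished in the cytoplasm. Assembly factors join and leave the particle in order, among them RNA helicases, GTPases, RNA-binding scaffolds, placeholders that hold the site of a later ribosomal protein, and a remodelling ATPase that pulls factors off. In yeast these genes belong to the ribosome biogenesis regulon, which is known for being transcribed strongly in fast growth and repressed under stress, and whose promoters often hold the PAC element, bound by the repressors Dot6 and Tod6, and the RRPE element, bound by Stb3.

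The promoters of the 37 genes were read from the R64 assembly of RefSeq, from 250 bases before to 50 bases after the start codon. PAC was searched as GCGATGAG and RRPE as GAAAAATTT, on both strands. PAC letters stood in 24 of 37 windows (64.9%) and in 3.93% of all 6007 windows of that length, and RRPE letters in 20 of 37 (54.1%) and in 6.08%. Both stood in 11 windows (29.7%, and 1.32% of all) and 1 or the other in 33 (89.2%, and 8.69% of all). The windows of NOC3, DBP9, EBP2 and TIF6 held neither. With the shorter cores, GATGAG inside PAC and AAAAATTT inside RRPE, the counts were 36 of 37 (20.4% of all) and 33 of 37 (14.2% of all). The first PAC lay 95 to 207 bases before the start codon (median 121.5) and the first RRPE 99 to 249 bases before it (median 145). A match is a description of letters and not a binding site. Windows of 4 genes are shown because they bracket the behaviour described below: REI1 had the widest range of signal over the 9 libraries, NOG1 the highest signal of any of the 37 in 1 library, MDN1 (also called REA1) the narrowest range, and RLP7 was higher in sam2Δ/sam2Δ at an equal level of the small-subunit processome genes. They are the windows at chrII:739591-739890 (REI1, plus strand), chrXVI:370728-371027 (NOG1, plus strand), chrXII:363689-363988 (MDN1, minus strand) and chrXIV:627093-627392 (RLP7, minus strand), each 300 bases written 5′ to 3′ along the gene, with PAC and RRPE letters on either strand in capitals.
REI1: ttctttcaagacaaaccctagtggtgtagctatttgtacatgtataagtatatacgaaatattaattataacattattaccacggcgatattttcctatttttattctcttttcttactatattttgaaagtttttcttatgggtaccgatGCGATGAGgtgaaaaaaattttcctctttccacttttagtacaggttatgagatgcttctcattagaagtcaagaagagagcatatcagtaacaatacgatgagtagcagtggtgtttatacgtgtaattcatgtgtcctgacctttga
NOG1: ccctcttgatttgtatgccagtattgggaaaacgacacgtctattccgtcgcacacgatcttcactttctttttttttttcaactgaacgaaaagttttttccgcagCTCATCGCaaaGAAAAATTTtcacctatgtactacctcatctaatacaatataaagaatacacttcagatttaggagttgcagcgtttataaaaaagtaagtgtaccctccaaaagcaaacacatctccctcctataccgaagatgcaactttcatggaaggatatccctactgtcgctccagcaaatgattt
MDN1: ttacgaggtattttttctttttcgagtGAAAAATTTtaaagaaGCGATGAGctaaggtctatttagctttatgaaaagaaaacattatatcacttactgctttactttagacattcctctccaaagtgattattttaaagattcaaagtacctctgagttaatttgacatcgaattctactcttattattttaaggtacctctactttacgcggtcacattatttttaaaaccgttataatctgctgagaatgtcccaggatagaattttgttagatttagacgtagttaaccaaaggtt
RLP7: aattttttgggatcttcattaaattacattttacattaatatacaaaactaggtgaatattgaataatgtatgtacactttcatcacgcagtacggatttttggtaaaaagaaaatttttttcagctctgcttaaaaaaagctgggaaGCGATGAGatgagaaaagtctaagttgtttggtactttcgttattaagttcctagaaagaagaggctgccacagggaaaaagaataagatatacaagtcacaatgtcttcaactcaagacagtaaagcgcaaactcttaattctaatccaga
The capitals in REI1 and RLP7 are a PAC, those in NOG1 a PAC on the other strand followed by an RRPE, and those in MDN1 an RRPE followed by a PAC that lies farther from the start codon than in any other of the 37 windows. The genes with the widest and the narrowest range of the 37 both hold a PAC, and no relation of these letters to the range was tested.

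Values are signal, the reads estimated for a gene divided by a factor of the library. The signal of 1 read was 0.443 to 2.18, and the libraries held about 4.90 to 23.8 M reads. Each value of the 37 genes rested on about 102 reads or more. The part of counting error in the differences below was not estimated. SAM1 was at 1.06, 1.77 and 0 in sam1Δ/sam1Δ and SAM2 at 2.43, 4.36 and 6.89 in sam2Δ/sam2Δ, against 2417 or more and 17280.0 or more in the other strains. Replicate 3 of sam2Δ/sam2Δ stood apart in its mating-type genes. The summed signal of 3 alpha-specific genes (MF(ALPHA)1, STE3 and SAG1) was 522, 451 and 2272 in sam2Δ/sam2Δ, 365 to 398 in sam1Δ/sam1Δ and 353 to 371 in wildtype, and MF(ALPHA)1, the alpha pheromone gene that an a/α diploid represses, was at 1473 in that library and at 18.2 to 56.6 in the other 8. The sum of 8 haploid-specific genes was 1379, 1126 and 2333 in sam2Δ/sam2Δ, 1038 to 1106 in sam1Δ/sam1Δ and 791 to 1072 in wildtype, and that of 5 a-specific genes was 523 to 874, 462 to 549 and 415 to 567 in the same order of strains. MFA2 was the only one of these 16 markers listed at 0, in replicate 1 of sam2Δ/sam2Δ. In RNA from a whole culture, a share of cells of another mating type and a low level in every cell cannot be told apart. The part of this library in the results was not tested, and the medians and calls of the sam2Δ/sam2Δ comparisons below are given with and without it.

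The 37 genes moved together from culture to culture, and little of the variation lay between strains. On the log2 scale, each gene centred on its own mean over the 9 libraries, the median of the 37 was -0.98, -0.36 and 0.69 in replicates 1 to 3 of sam2Δ/sam2Δ, -0.69, 0.66 and 0.52 in sam1Δ/sam1Δ, and 1.36, -0.62 and -0.42 in wildtype. Every strain thus had libraries well below and well above the mean, and the pooled SD of these medians within a strain was 0.90. The medians of all 6139 tested genes ran from -0.0071 to 0.0122 over the 9 libraries. The highest library was replicate 1 of wildtype for 34 of the 37 genes and replicate 3 of sam2Δ/sam2Δ for RLP7, NOP16 and LOC1, and the lowest was replicate 1 of sam2Δ/sam2Δ for 27.

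**Figure D1:**
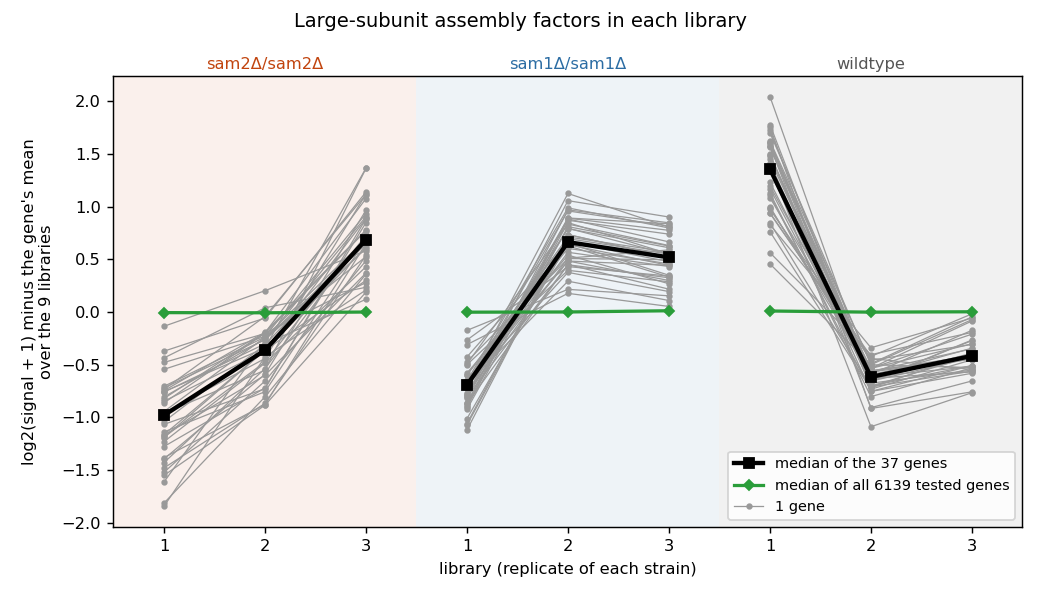
Level of each of the 37 genes in each library, as log2(signal + 1) minus the mean of the gene over the 9 libraries; grey points joined by thin lines are genes, black squares their median and green diamonds the median of all 6139 tested genes, and lines join libraries only to guide the eye. The black squares run between -0.98 and 1.36 with high and low libraries in every strain, while the green diamonds lie between -0.0071 and 0.0122.

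The highest library exceeded the lowest by a median of 5.51-fold (signal plus 1) for the 37 genes and 2.02-fold for all tested genes, and 24 of 37 (64.9%) reached 4-fold against 12.5% of all. A median of 5.77% of the variance of the 37 genes lay between strains, against 25.4% for all tested genes, and the median SD within a strain was 0.95 against 0.31 on the log2 scale. Between pairs of the 37 genes, Pearson's r of log2 signal over the 9 libraries was 0.96 in the median (0.52 at the lowest, over 666 pairs that share their libraries), and a gene's r with the mean of the others was 0.98 in the median. It was lowest for LOC1 (0.75) and RLP7 (0.86). An r of at least 0.9 was reached by 35 of the 37 and by 546 of the 6102 other tested genes (8.95%). These are descriptions over 9 libraries.

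NOC2 (YOR206W) and NOC3 (YLR002C) form one of the Noc dimers that accompany the particle from the nucleolus into the nucleoplasm. NOC2 had a signal of 817, 1015 and 2278 in sam2Δ/sam2Δ, 743, 1547 and 1364 in sam1Δ/sam1Δ, and 2282, 878 and 816 in wildtype. The ranges of the 3 strains overlapped, and so they did for NOC3, whose values ran from 358 to 1255. Both had a narrow range among the 37, 3.07-fold and 3.51-fold. The difference of sam2Δ/sam2Δ from wildtype was 0.07 (SE 0.52) for NOC2 and -0.22 (SE 0.51) for NOC3.

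The 6 DEAD-box RNA helicases, DBP3, DBP9, DBP10, MAK5, DRS1 and HAS1, unwind or rearrange the precursor RNA. HAS1 (YMR290C, chromosome XIII, 850074 to 851769), which acts on precursors of both subunits, was at 301, 806 and 1253 in sam2Δ/sam2Δ, 769, 1934 and 1679.5 in sam1Δ/sam1Δ, and 3346, 771 and 1049.7 in wildtype, an 11.1-fold range. Its lowest value was replicate 1 of sam2Δ/sam2Δ and its highest replicate 1 of wildtype, with the other 7 libraries overlapping between strains. DBP3 reached 7732 in replicate 1 of wildtype, and its level per kb, 2007 on average, was the highest of the helicases. DBP9 had the narrowest range of the 6, 3.58-fold. HAS1 shares its locus with the dubious frame YMR290W-A (26.7 to 310 signal), and the split between them was made by the program.

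MAK16, RPF1 and NSA1 form a module on the outer side of the early particle, and SSF1 binds nearby. MAK16 (YAL025C, chromosome I, 100225 to 101145) was at 225, 453 and 1017 in sam2Δ/sam2Δ, 503, 1574 and 1379 in sam1Δ/sam1Δ, and 2578, 560.0 and 754 in wildtype. Replicates 1 and 2 of sam2Δ/sam2Δ lay below every other library, and replicate 3 lay inside the ranges of both other strains. MAK16 had the largest share of variance between strains of the 37, 27.6%, beside a median of 25.4% over all tested genes. NSA1, of the same module, ranged 3.14-fold where MAK16 ranged 11.5-fold. SSF1 was at 189 to 1234, but its coding sequence is 92.1% identical to that of SSF2 (210.4 to 526 signal), so reads may have been split between the copies and its values are uncertain.

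NOP7, ERB1 and YTM1 form the complex that governs removal of the second internal spacer, ITS2, and NOP15, CIC1 and RLP7 bind that spacer. RLP7 (YNL002C, chromosome XIV, 626174 to 627142), a relative of the ribosomal protein Rpl7, was at 1161, 1444 and 3311 in sam2Δ/sam2Δ, 933, 1841 and 1621 in sam1Δ/sam1Δ, and 2703, 918 and 1018 in wildtype. NOP15 was at 426, 568 and 1859.7 in sam2Δ/sam2Δ, 345, 1201 and 1033 in sam1Δ/sam1Δ, and 1889, 338 and 423 in wildtype. In both genes replicate 3 of sam2Δ/sam2Δ came close to or above replicate 1 of wildtype, and the strains overlapped. ERB1 had the widest range of the 6 genes, 6.71-fold, and RLP7 the narrowest, 3.61-fold.

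RPF2 and RRS1 bring the 5S RNA with its proteins into the particle, and BRX1, EBP2, NOP4, NOP16 and LOC1 bind RNA or other factors in the nucleolar particle. RRS1 was at 268, 490.0 and 1083 in sam2Δ/sam2Δ, 446, 1609 and 1445 in sam1Δ/sam1Δ, and 2361, 489.7 and 571 in wildtype, an 8.80-fold range. LOC1 (YFR001W, chromosome VI, 149110 to 149724), which also takes part in localising ASH1 mRNA, was at 817, 1032 and 1344 in sam2Δ/sam2Δ, 724, 1015 and 931 in sam1Δ/sam1Δ, and 1232, 634 and 622 in wildtype. LOC1 ranged only 2.16-fold, and of the 37 it followed the others least. BRX1 was at 609, 984 and 2198 in sam2Δ/sam2Δ, 579, 1385 and 1179 in sam1Δ/sam1Δ, and 2223, 581 and 702 in wildtype.

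RLP24, TIF6 and MRT4 hold places on the particle, RLP24 and MRT4 for the ribosomal proteins they resemble and TIF6 against early joining of the small subunit. TIF6 had the highest level per kb of the 37, 3928 on average, and a range of 3.01-fold. NSA2 is a factor of the late nucleolar particle, and NOG1, NOG2 and NUG1 are GTPases. NOG1 (YPL093W, chromosome XVI, 370978 to 372921) was at 995, 1522 and 4033 in sam2Δ/sam2Δ, 1718, 5407 and 4889 in sam1Δ/sam1Δ, and 9182, 1841 and 2101 in wildtype, a 9.23-fold range. MDN1 (YLR106C, chromosome XII, 349006 to 363738), the giant ATPase that strips factors off the particle, was at 1938, 2696 and 3086 in sam2Δ/sam2Δ, 2324, 3044 and 2918 in sam1Δ/sam1Δ, and 3876, 1981 and 2293 in wildtype. Its 2.00-fold range was the narrowest of the 37 and its level per kb, 182 on average, the lowest.

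ARX1 and NMD3 take the particle through the nuclear pore, LSG1 is the cytoplasmic GTPase that frees NMD3, and REI1 is the cytoplasmic zinc-finger protein needed to free ARX1. REI1 (YBR267W, chromosome II, 739841 to 741022) was at 139.6, 222 and 469 in sam2Δ/sam2Δ, 254, 898 and 719.6 in sam1Δ/sam1Δ, and 1700.4, 262 and 314 in wildtype. Its 12.2-fold range was the widest of the 37. REI1 shares its locus with SLM6 (99.5 to 881 signal). The split between them was made by the program, so the values of REI1 are uncertain. NOG2 shares its locus with snR191 (1.06 to 12.4) and NOP4 with YPL044C (0 to 2.18), both with little signal. NMD3 ranged 5.06-fold and had the highest r with the mean of the other genes, 0.999.

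**Figure D2:**
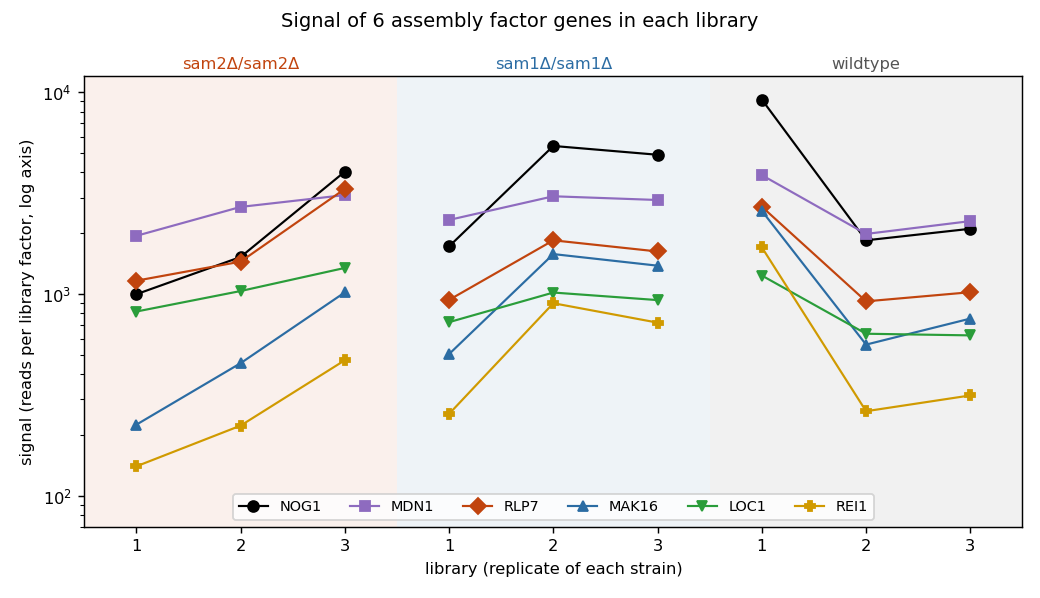
Signal of 6 of the genes in each library on a log axis, with replicates 1 to 3 of sam2Δ/sam2Δ, sam1Δ/sam1Δ and wildtype and lines that only guide the eye. REI1 runs from 139.6 to 1700.4 and MDN1 from 1938 to 3876, and replicate 1 of wildtype is the top of every line but those of RLP7 and LOC1.

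The 2 comparisons with wildtype were fitted over 6 libraries each and that between the mutants over all 9, with limma on log2(signal + 1). All 37 genes passed the filter on low signal (at least 10 in at least 3 libraries) in each comparison. A gene was called a DEG where its unadjusted P did not exceed 0.05 and its log2FC reached 0.58 in either direction. None of the 37 was a DEG in any of the 3 comparisons with limma, 0 reached an unadjusted P of 0.05, 0 passed adjustment, and limma-voom counted 0 as well. Of all tested genes 9.85% were DEGs in sam2Δ/sam2Δ against wildtype, 1.15% in sam1Δ/sam1Δ against wildtype and 10.2% in sam2Δ/sam2Δ against sam1Δ/sam1Δ. The groups overlapped for all 37 genes in each comparison, while they did not overlap for 22.3%, 6.53% and 25.4% of all tested genes. The comparisons share libraries and are not independent of each other.

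In sam2Δ/sam2Δ against wildtype the median log2FC of the 37 was -0.33, beside -0.01 for all genes, and 7 of 37 lay above 0. The lowest value was that of MAK16 (-1.13, SE 0.72, adjusted P = 0.55 with limma), followed by REI1 (-1.09, SE 0.78) and HAS1 (-1.05, SE 0.69), and the highest was that of LOC1 (0.41, SE 0.33, adjusted P = 0.65). SEs ran from 0.31 for MDN1 to 0.83 for SSF1, so the cutoff of 0.58 was under 2 SEs for each of the 37, and a change of that size was not detectable at this spread. The sign of the median rested on single libraries. It was 0.24 without replicate 1 of wildtype, with 29 of 37 above 0 and LOC1 counted as a DEG (log2FC 0.73, unadjusted P = 0.016), and 0.06 without replicate 1 of sam2Δ/sam2Δ. It was -0.76 without replicate 3 of sam2Δ/sam2Δ, the library with raised mating-type genes, -0.70 without replicate 2 of wildtype and -0.58 without replicate 3 of wildtype.

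In sam1Δ/sam1Δ against wildtype the 37 genes had a median log2FC of 0.04, beside -0.01 for all genes, with 28 above 0 and all between -0.17 (YTM1) and 0.25 (NOP16). The SEs were 0.28 to 0.85. Without replicate 1 of wildtype the median was 0.64 with all 37 above 0, and without replicate 1 of sam1Δ/sam1Δ it was 0.47. It was -0.30 and -0.20 without replicates 2 and 3 of wildtype, and -0.22 and -0.13 without replicates 2 and 3 of sam1Δ/sam1Δ. NOG1 (0.12, SE 0.74), MAK16 (0.00, SE 0.69) and REI1 (0.08, SE 0.83) all lay near 0 beside their errors.

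In sam2Δ/sam2Δ against sam1Δ/sam1Δ the median was -0.37, beside -0.01 for all genes, and 6 of 37 lay above 0. REI1 (-1.16, SE 0.79, adjusted P = 0.51 with limma) and MAK16 (-1.13, SE 0.73) were lowest and RLP7 (0.33, SE 0.52) was highest. By role, the medians ran from -0.63 for the helicases and -0.54 for the placeholders, GTPases and ATPase to -0.16 for the NOP7 complex and ITS2 binders and -0.05 for the 2 Noc proteins. Without replicate 3 of sam2Δ/sam2Δ the same medians were -1.14 for the helicases, -1.08 for the placeholders, GTPases and ATPase, -0.60 for the NOP7 complex and ITS2 binders and -0.47 for the Noc proteins. The median of the 37 was -0.80 without replicate 3 of sam2Δ/sam2Δ, 0.04 without its replicate 1, -0.76 without replicate 1 of sam1Δ/sam1Δ, and -0.15 and -0.22 without replicates 2 and 3 of sam1Δ/sam1Δ.

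**Figure D3:**
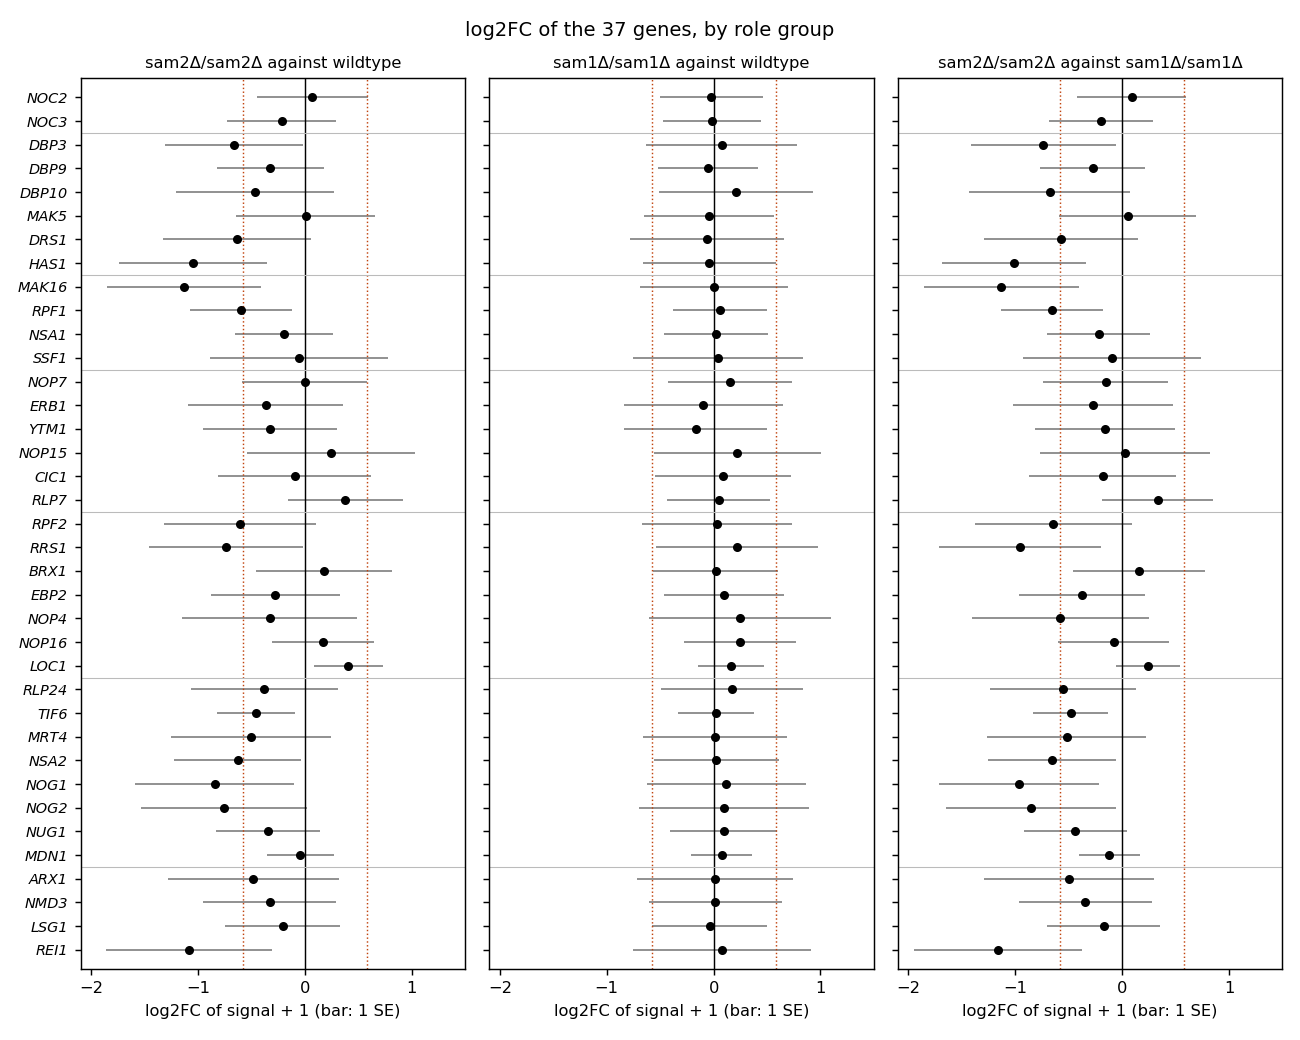
log2FC of each of the 37 genes in the 3 comparisons, with bars of 1 SE, grey lines between role groups and dotted lines at the cutoff of 0.58 on either side of 0. The values of sam1Δ/sam1Δ against wildtype lie between -0.17 and 0.25 with every bar crossing 0, and MAK16, HAS1 and REI1 are lowest where sam2Δ/sam2Δ is compared.

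Other genes of ribosome production followed the same libraries. The medians of 46 small-subunit processome genes were -1.0, -0.47 and 0.79 in sam2Δ/sam2Δ, -0.77, 0.64 and 0.51 in sam1Δ/sam1Δ, and 1.32, -0.60 and -0.41 in wildtype. Over the 9 libraries the r of these medians with the mean of the 37 was 0.998, that of 56 other large-subunit assembly factors 0.995, and that of 16 genes of RNA polymerase I and its initiation factors 0.989. Regulators of the regulon (9 genes) reached 0.819 and ribosomal proteins of the large and small subunit (80 and 56 tested) 0.746 and 0.757, with medians spanning 1.00 and 1.07 against 2.34 for the 37. For 19 general stress genes r was -0.955, and their medians were 0.68, 0.36 and -0.20 in sam2Δ/sam2Δ, 0.59, -0.75 and -0.57 in sam1Δ/sam1Δ, and -1.41, 0.82 and 0.48 in wildtype. The libraries with low assembly factors were thus those with high stress genes, and no cause of this was tested. The 5 tested genes outside the 37 with the highest r with their mean were RMT2, SXM1, KRI1, DUS1 and PUS7 (r 0.997 to 0.998).

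**Figure D4:**
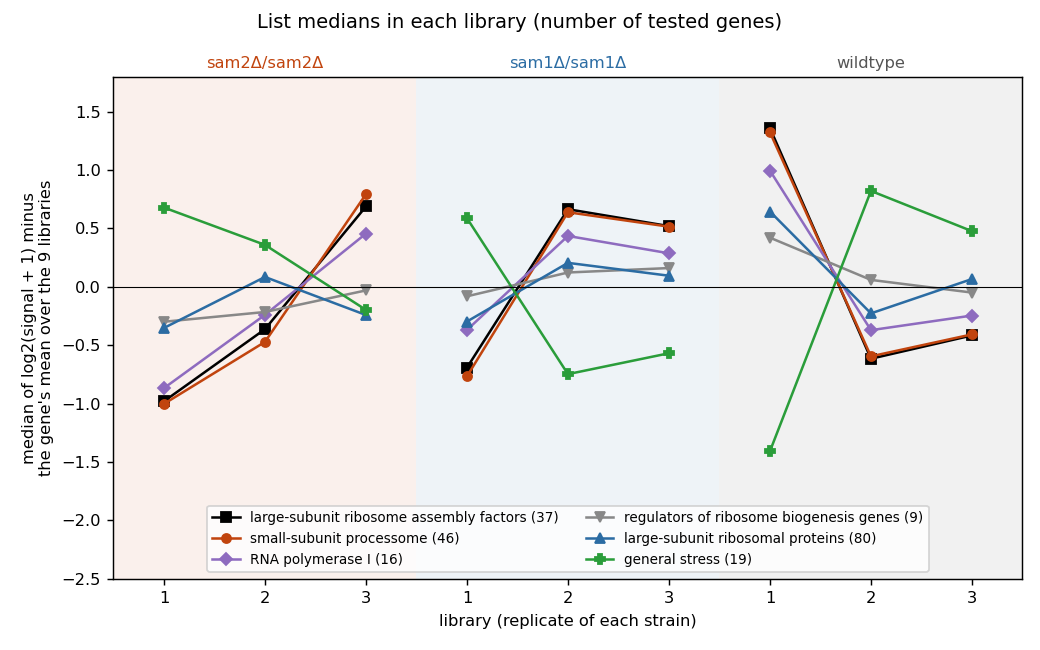
Median level of 6 gene lists in each library, as log2(signal + 1) minus the mean of each gene over the 9 libraries, with the number of tested genes in the legend and lines that only guide the eye. The assembly factors and the processome overlie each other between about -1.0 and 1.36, ribosomal proteins span 1.00, and general stress genes run the other way from -1.41 to 0.82.

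None of the 56 other assembly factors, the 46 processome genes or the 9 regulators was a DEG in the 3 comparisons with limma. Of 16 RNA polymerase I genes, RRN5, a subunit of the upstream activation factor, fell in sam2Δ/sam2Δ against wildtype (log2FC -0.87, SE 0.27, adjusted P = 0.28 with limma) and against sam1Δ/sam1Δ (-0.71, SE 0.22), and RRN9, of the same factor, rose against sam1Δ/sam1Δ (0.62, SE 0.12, adjusted P = 0.067). Among 80 large-subunit ribosomal protein genes 1 fell in each comparison (RPL28 in sam2Δ/sam2Δ against wildtype, RPL41B in sam1Δ/sam1Δ against wildtype and RPP2B in sam2Δ/sam2Δ against sam1Δ/sam1Δ) and 0 rose. Among 56 small-subunit ones RPS28A fell in sam2Δ/sam2Δ against wildtype and RPS10B rose against sam1Δ/sam1Δ. Among 19 stress genes CTT1, the cytosolic catalase, rose in sam2Δ/sam2Δ against sam1Δ/sam1Δ (0.69, SE 0.18). Of the tested mating-type genes, FAR1 (1.11, SE 0.38) and SAG1 (0.82, SE 0.18) rose in sam2Δ/sam2Δ against wildtype, and SAG1 and STE6 rose and BAR1 fell against sam1Δ/sam1Δ. None of these calls outside the 37 passed adjustment over all genes. Without replicate 3 of sam2Δ/sam2Δ, where 7.78% of all genes were DEGs against wildtype and 10.4% against sam1Δ/sam1Δ, the calls of RRN5, FAR1 and SAG1 against wildtype and of RRN9, CTT1, STE6 and RPS10B against sam1Δ/sam1Δ still met the cutoffs. Those of RPL28 and RPS28A against wildtype and of RRN5, RPP2B, SAG1 and BAR1 against sam1Δ/sam1Δ did not. Without that library RRN9 against wildtype, NOP2, one of the other assembly factors, against sam1Δ/sam1Δ, and MF(ALPHA)1 in both comparisons met the cutoffs as well, RRN9 as higher and the other genes as lower in sam2Δ/sam2Δ. The paper used another test (Cuffdiff) with the same cutoffs and reported NOP2 as lower in sam2Δ/sam2Δ against wildtype. NOP1, EMG1, BUD23 and TRM112 were also among the AdoMet-dependent methyltransferase genes that it reported as lower there. The paper also reported ribosome biogenesis as over-represented among its DEGs of that comparison.

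Since the 37 genes shared most of their spread with the processome genes, a comparison was added after the data had been seen: all 9 libraries in 1 limma fit with the median level of the processome genes, none of which is among the 37, as a covariate. It compares strains at an equal processome level. With it SEs of the 37 dropped to between 0.09 and 0.20, the median log2FC was 0.00 in sam2Δ/sam2Δ against wildtype, and genes were called at an adjusted P of at most 0.05. In sam2Δ/sam2Δ against wildtype 9 of 37 were higher (11.1% of all genes) and 5 lower (12.3% of all). In sam2Δ/sam2Δ against sam1Δ/sam1Δ 7 were higher (7.87% of all) and 5 lower (8.62% of all), and in sam1Δ/sam1Δ against wildtype 0 were called (0.195% of all), with 0 at an unadjusted P of 0.05. Both sam2Δ/sam2Δ comparisons use the same 3 libraries, so the second is no repeat of the first. As shares of the 37 these were 24.3% higher and 13.5% lower against wildtype, and 18.9% and 13.5% against sam1Δ/sam1Δ. The covariate was chosen because the 37 follow it closely (r 0.998), so it cuts their spread more than that of a gene that does not follow it. The shares of the 37 and of all genes are thus not compared at equal spread, and the median near 0 is no separate result. In this fit all 4 shares lay above those of all genes, that called lower against wildtype by little, and no test of the 37 as a list was run. The order did not hold in every alternative. With the level of RNA polymerase I as covariate, 2 of 37 were lower against wildtype (9.82% of all). Against sam1Δ/sam1Δ 1 was lower (6.50% of all). Both lay below the share of all genes. With the level of the other large-subunit factors, 11 were lower in each sam2Δ/sam2Δ comparison (13.5% and 10.3% of all), above it. With that covariate 5 were higher against wildtype (11.8% of all), above it, and 3 against sam1Δ/sam1Δ (9.11% of all), below it. With the processome level but without replicate 3 of sam2Δ/sam2Δ, 2 were lower against wildtype (6.31% of all), below it. The other shares without that library lay above those of all genes.

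The members differed in direction by name. RLP7 was higher in sam2Δ/sam2Δ by 0.65 (SE 0.10, adjusted P = 0.0045) against wildtype and 0.62 (SE 0.10, adjusted P = 0.0063) against sam1Δ/sam1Δ, and passed in all 11 alternatives of either comparison, which exchange the covariate or leave out 1 library. Relative to the median of the 37 in its library, RLP7 stood at 1.44, 1.05 and 1.08 in sam2Δ/sam2Δ, 0.72, 0.21 and 0.17 in sam1Δ/sam1Δ, and 0.15, 0.57 and 0.43 in wildtype. Such levels come from the same libraries as the fit and are no separate support. MAK16 was lower in sam2Δ/sam2Δ, with log2FC of -0.74 (SE 0.12, adjusted P = 0.0058) against wildtype and -0.72 (SE 0.12, adjusted P = 0.0076) against sam1Δ/sam1Δ, again in all 11 alternatives, and stood at -0.92, -0.62 and -0.62 in sam2Δ/sam2Δ, -0.17, -0.02 and -0.07 in sam1Δ/sam1Δ, and 0.09, -0.15 and 0.00 in wildtype.

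Against wildtype NOP15 (0.67, SE 0.10), LOC1 (0.55, SE 0.11) and BRX1 (0.51, SE 0.10) were also higher in all 11 alternatives, whereas MAK5, NOP16, NOP7, NOC2 and SSF1 passed in 5 or fewer. REI1 (-0.67, SE 0.16) was lower in 9 and NOG1 (-0.45, SE 0.09) in 10 of the 11, and HAS1 and NOG2 in 3 and 4. Against sam1Δ/sam1Δ BRX1 was higher in 9, NOP15 in 6 and LOC1 in 5 of the 11, while NOG1 was lower in 10 and REI1 and NOG2 in 6. NOP15 and RLP7 share the ITS2 spacer as their binding site, while CIC1, which binds there too, did not pass (0.27, adjusted P = 0.12). RPF1 and NSA1, the partners of MAK16, did not pass either (-0.35 and 0.05). RRS1 was lower against sam1Δ/sam1Δ (-0.52, SE 0.11), in 7 of the 11 alternatives, and had -0.34 with an adjusted P of 0.059 against wildtype. Without replicate 3 of sam2Δ/sam2Δ 5 genes were higher and 2 lower against wildtype, and 3 and 2 against sam1Δ/sam1Δ, where 4.86% of all genes were higher and 6.31% lower against wildtype, and 3.69% and 4.37% against sam1Δ/sam1Δ.

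**Figure D5:**
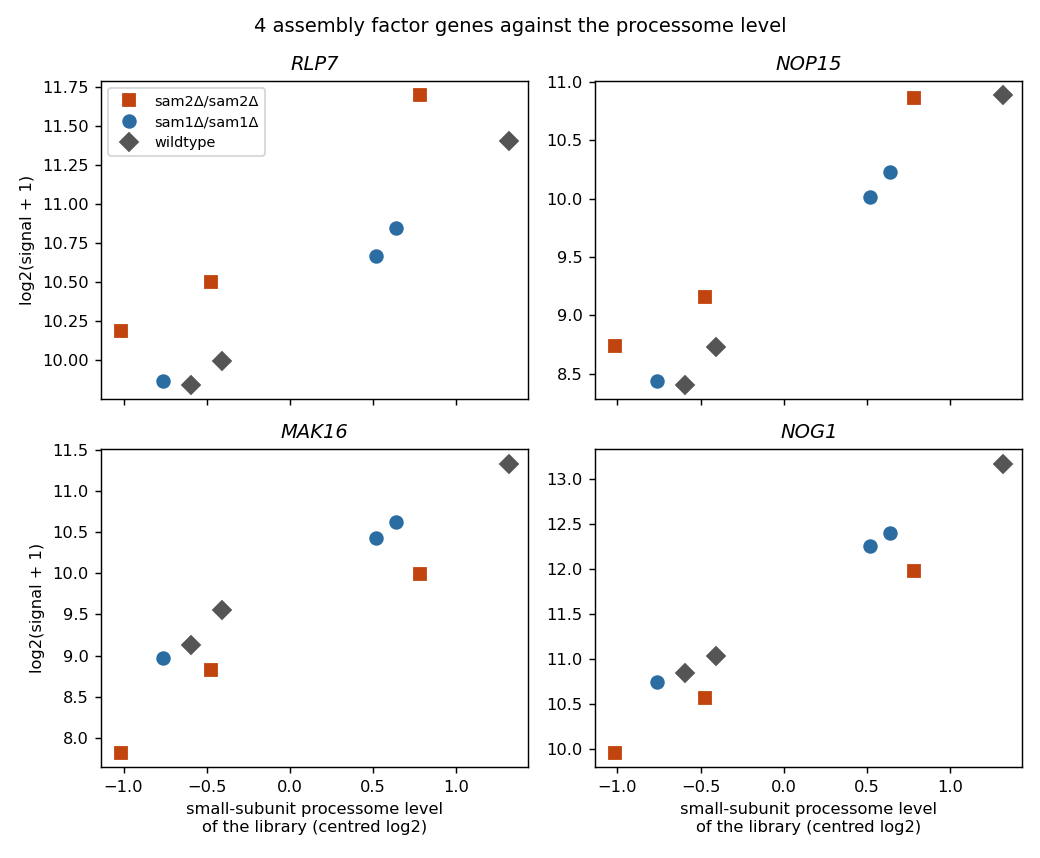
log2(signal + 1) of RLP7, NOP15, MAK16 and NOG1 against the processome level of the library, 9 libraries each, with orange squares for sam2Δ/sam2Δ, blue circles for sam1Δ/sam1Δ and grey diamonds for wildtype. At a like processome level the squares lie above the other points for RLP7 and NOP15 and below them for MAK16 and NOG1, with log2FC of 0.65, 0.67, -0.74 and -0.45 against wildtype.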

How the data were processed

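Poly-A RNA from 9 cultures was sequenced with a stranded kit. The authors aligned reads with TopHat2 2.0.13 to the R64 assembly and made gene values with Cufflinks and Cuffnorm 2.2.1, while the release of the annotation and the setting for normalization are not given in the sources used here. The deposited signal is reads estimated per gene divided by a library factor: 97.7 to 98.1% of values above 0 and under 1000 were whole multiples of 1 step (tolerance 0.05). Library totals were 9.38 to 11.9 M. No value column was left without a sample (0 columns).

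The test for read counts that had been planned was not used, since the deposited signal is not counts. limma 3.58.1 in R 4.3.3, with a mean-variance trend, was run on log2(signal + 1) for genes whose signal reached 10 in 3 or more libraries, with Benjamini-Hochberg adjustment over all tested genes. A log2FC on this scale understates the change of low genes. The limma script was tested on simulated data. Other steps used Python 3.11.15 with pandas 2.3.3, numpy 2.4.6, Biopython 1.88 and matplotlib 3.10.9.

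The 37 genes, the 10 gene lists and the role groups were chosen with earlier results of these data known. Any of the 37 could be named. Other genes were named when they were SAM1, SAM2 or SSF2, mating-type markers, at most 5 DEGs of a list, or the 5 genes most like the 37. Genes that the paper reported as lower were named as well. Coordinates are those of the deposited table, counted from 1, and 99.8% of 5264 genes alone at their locus had the same start and end in RefSeq. Alternatives were other scalings, pseudocounts, filters, limma-voom, other sets of libraries, a replicate block and leaving out each library. The covariate fit and its alternatives were added after the data were seen.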

Additional observations from a re-analysis of the deposited data

How the results depend on the processing

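The count of 0 DEGs among the 37 genes held in all 3 comparisons under limma-voom, other scalings, pseudocounts of 0.5 and 5, both other filters, other sets of libraries, an adjusted P of 0.05 and the replicate block (0 DEGs), and with each library left out, except for 1 (LOC1) without replicate 1 of wildtype in sam2Δ/sam2Δ against wildtype, a range of 0 to 1. With scaling to library size the median of all genes was 0.15 in that comparison, a shift of 0.16, and that of the 37 was -0.17. Without 1 library the medians of the 37 ran from -0.76 to 0.24 in sam2Δ/sam2Δ against wildtype, -0.30 to 0.64 in sam1Δ/sam1Δ against wildtype and -0.80 to 0.04 in sam2Δ/sam2Δ against sam1Δ/sam1Δ. Same-numbered libraries had correlations of their deviations from -0.85 to 0.69, and differently numbered ones from -0.705 to 0.841. The numbers thus showed no pairing of the samples, while shared handling of libraries was not tested. With the covariate, leaving out 1 library gave 4 to 8 higher and 2 to 9 lower genes against wildtype, and 1 to 7 higher and 2 to 9 lower against sam1Δ/sam1Δ, while 3.70 to 16.2% of all genes were higher and 5.50 to 17.4% lower against wildtype, and 1.89 to 13.2% and 1.97 to 13.7% against sam1Δ/sam1Δ. With the level of the other large-subunit factors as covariate these were 5 and 11 (11.8% and 13.5% of all genes), and 3 and 11 (9.11% and 10.3%), and with that of RNA polymerase I 7 and 2 (8.99% and 9.82%), and 4 and 1 (6.03% and 6.50%). The cause was not tested. Tests for read counts were not run, since the unit is not counts.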
